A study of Homo sapiens with 6 samples.

Results

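Villin and 9 other genes that build the intestinal brush border were followed in liver metastases of the colorectal cancer line SW480. The 10 genes are VIL1, PLS1, EPS8, ESPN, MYO1A, MYO7B, CDHR2, CDHR5, USH1C and EZR, out of 58884 gene identifiers counted. VIL1 was chosen by its measured rise in these same libraries, so its values are given as a description with no test. The other 9 were listed beside it for what their proteins do. SW480 is an established line grown from a human colon tumour. The cells carried a control guide RNA (sgCtrl, 3 libraries) or a guide RNA against ITPR3, the type 3 inositol trisphosphate receptor gene (sgITPR3, 3 libraries). Both kinds of cell were given to NSG mice, which lack working lymphocytes, by the portal route, and both were recovered from digested liver after mouse cells had been depleted. The sources used here do not give the number of guides, whether the cells are 1 clone or the age of the mice. Whether the libraries of a group stem from separate mice is not stated either, and p-values therefore speak of the spread among these 6 libraries, which may be technical.

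The brush border is the carpet of microvilli on the apical face of intestinal absorptive cells. Each microvillus has a core of parallel actin filaments, bundled by villin (VIL1), plastin 1 (PLS1, also called fimbrin) and espin (ESPN), while EPS8 sits at the growing tip of the filaments. Ezrin (EZR) and the motor myosin 1a (MYO1A) tie the core to the membrane around it. At the tips, the protocadherins CDHR2 and CDHR5 link neighbouring microvilli, and they are anchored inside the cell by harmonin (USH1C) and myosin 7b (MYO7B). Villin is widely used as a marker of gut epithelium.

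Levels are read counts scaled to CPM, in which the TMM-adjusted size of each library is set to the same total. Sequencing read tags from transcript ends, so a level follows the number of transcripts and was not divided by gene length. Totals were 19140055 to 23943797 counts per library, and 1 count is 0.0405 to 0.0538 CPM. ITPR3 itself was 2.34-fold lower in sgITPR3, and its 2 groups did not overlap. Tags from the transcript end need not cover the edited site, so this level does not check the edit itself. The labelled cell type was checked on 10 colorectal epithelial markers, of which 0 were without counts in all libraries. Their summed level was 2768 to 3246 CPM in sgCtrl and 2276 to 2331 CPM in sgITPR3. CEACAM5 among them had 0 counts in each sgCtrl library and 0, 12 and 1 in sgITPR3. By the test described next, 9 of the markers could be tested, and 1 rose and 5 fell in sgITPR3. Over all genes tested, 11.6% rose and 11.9% fell. The median log2 fold change of the 9 was -0.385, against 0.00086 over all genes tested.

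Of the 10 genes, 6 passed the filter on low counts, all with at least 10 counts in each sgCtrl library, and 4 did not. Leaving VIL1 out, 5 of 9 could be tested: EPS8 and USH1C rose in sgITPR3, EZR fell, and PLS1 and ESPN did not pass (edgeR quasi-likelihood test, adjusted p under 0.05 over all 15804 genes tested). Among all genes tested, 11.6% passed as higher and 11.9% as lower. The median log2 fold change of these 5 was -0.0041, against 0.00086 over all genes tested, so the list held members on both sides of 0. The sgITPR3 libraries all lay above the sgCtrl libraries for EPS8 and USH1C, and all below for EZR, against 19.6% and 19.7% of all genes tested. They also lay above for VIL1, which was chosen for its rise and is left out of this comparison.

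**Figure D1:**
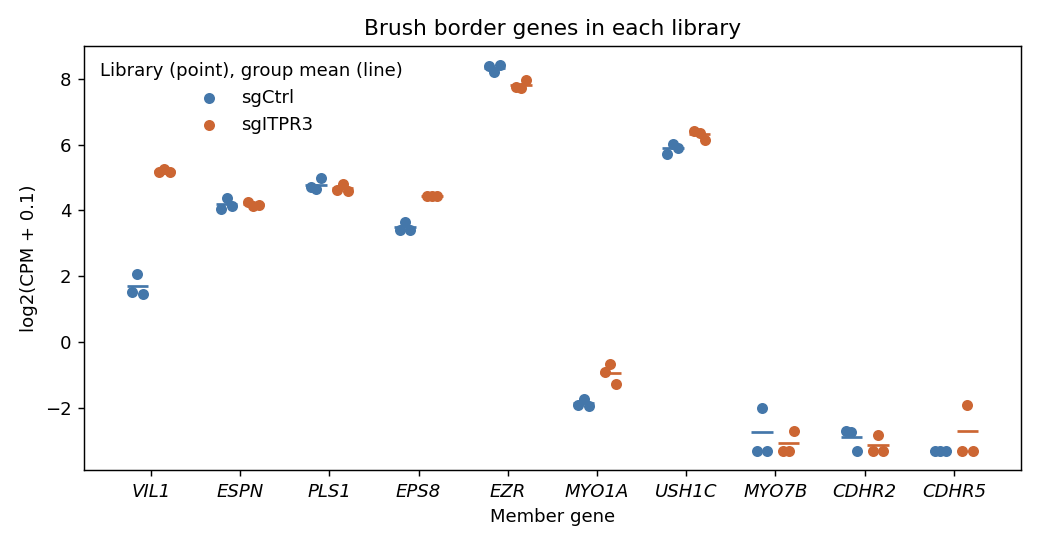
Level of each member in each library, as log2(CPM + 0.1); points are libraries, lines are the log2 of group means (n = 3 each), and points at the bottom are libraries with 0 counts. VIL1 moved from 2.67 to 4.13 CPM in sgCtrl to between 36.0 and 38.1 CPM in sgITPR3, EPS8 and USH1C were higher without overlap, EZR was lower without overlap, and MYO7B, CDHR2 and CDHR5 stayed near 0.

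The actin bundlers had unlike values. VIL1 (ENSG00000127831, GRCh38 chromosome 2, 218419092 to 218453295, plus strand) was at 2.74, 4.13 and 2.67 CPM in sgCtrl replicates 1 to 3 and at 36.1, 38.1 and 36.0 CPM in sgITPR3 replicates 1 to 3. The groups were far apart, and within sgCtrl the second library was the highest, at 152% of the mean of the other two. The log2 fold change was 3.52 (SE 0.141), the 18th largest of 15804. It ranged from 3.26 to 3.76 over 13 other settings.

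PLS1 (chromosome 3, 142596387 to 142713664, plus strand) encodes the plastin of gut and hair cell protrusions. It was at 26.1, 24.9 and 31.6 CPM in sgCtrl and 24.4, 27.9 and 24.1 CPM in sgITPR3. The groups overlapped, and its log2 fold change was -0.11 (SE 0.105, edgeR adjusted p = 0.495).

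ESPN (chromosome 1, 6424776 to 6461367, plus strand), whose product espin sets the length of actin bundles, was at 16.3, 20.8 and 17.4 CPM in sgCtrl and 18.9, 17.5 and 17.9 CPM in sgITPR3. The sgITPR3 values lay inside the sgCtrl range. Its log2 fold change was -0.0041 (SE 0.110, edgeR adjusted p = 0.984). For both PLS1 and ESPN the sign changed with the setting, so no direction is given for either.

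EPS8 (chromosome 12, 15620158 to 15882329, minus strand), which caps and bundles filaments at the microvillus tip, was at 10.4, 12.4 and 10.5 CPM in sgCtrl and 21.5, 21.7 and 21.5 CPM in sgITPR3. Its 3 sgITPR3 libraries differed by less than the sgCtrl libraries did, and the groups did not overlap. EPS8 rose 1.94-fold, from 11.1 ± 1.14 to 21.6 ± 0.0968 CPM (SD, n = 3 each), a log2 fold change of 0.96 with an SE of 0.107 (edgeR adjusted p = 1.94e-05). The call held in all 13 other settings, with log2 fold changes from 0.83 to 1.05.

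The ratio of EPS8 to PLS1 counts within a library, which no scaling can alter, was 0.400, 0.499 and 0.332 in sgCtrl and 0.881, 0.778 and 0.893 in sgITPR3. Its log2 value was 1.07 higher in sgITPR3, without overlap (exact permutation test, two-sided, p = 0.1, the smallest that 3 against 3 libraries allow; 0.133 adjusted over 4 ratios). So the change of EPS8 exceeded that of PLS1 in each sgITPR3 library set against each sgCtrl library, in a design that cannot reach 0.05.

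The linkers between core and membrane went the other way or were barely detected. EZR (chromosome 6, 158765741 to 158819412, minus strand) was the most abundant member in both groups, at 334, 295 and 343 CPM in sgCtrl and 219, 214 and 251 CPM in sgITPR3. The lowest sgCtrl library lay above the highest sgITPR3 library. EZR fell 1.42-fold, from 324 ± 25.4 to 228 ± 20.2 CPM, a log2 fold change of -0.51 with an SE of 0.0801 (edgeR adjusted p = 3.82e-04), and the call held in all 13 other settings.

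Ezrin has close relatives, radixin (RDX) and moesin (MSN), which do similar work at the membrane. Whether any reads were shared between these genes in the authors' counting was not tested. RDX, at 310 and 327 CPM as group means, did not pass (log2 fold change 0.074, edgeR adjusted p = 0.478). MSN fell, with group means of 265 and 204 CPM (a log2 difference of -0.37, edgeR adjusted p = 0.00416), but not with ALB, a liver transcript taken up below, as a covariate, where 0 of the partner genes counted as lower. The ratio of EZR to RDX counts was 1.11, 1.0 and 1.02 in sgCtrl and 0.680, 0.665 and 0.745 in sgITPR3, so ezrin transcripts went from about level with radixin to below it. That log2 ratio differed by -0.58 without overlap (exact permutation test, p = 0.1; 0.133 adjusted over 4 ratios). The ratio of EZR to MSN was 1.15, 1.28 and 1.25 against 1.08, 1.06 and 1.21, which overlapped (difference of log2 ratios -0.14, exact permutation test, p = 0.2, also 0.2 when adjusted).

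**Figure D2:**
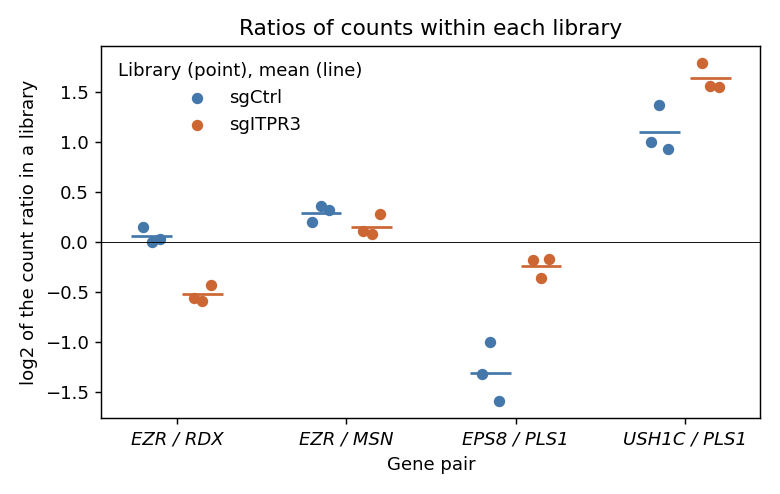
Log2 of the ratio of counts of 2 genes within each library; points are libraries and lines are group means (n = 3 each). EZR over RDX is lower and EPS8 and USH1C over PLS1 are higher in sgITPR3 without overlap, while EZR over MSN overlaps between groups.

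MYO1A (chromosome 12, 57028517 to 57051198, minus strand), the membrane-linking motor of the mature brush border, had 3, 4 and 3 counts in sgCtrl and 10, 13 and 6 counts in sgITPR3. This was too few for the low-count filter, although the groups did not overlap. The ratio of summed levels was 2.48, with an exact 95% interval of 1.17 to 5.70 that covers counting error only. In a fit with no filter its log2 fold change of 1.26 did not pass (edgeR adjusted p = 0.363).

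The tip link complex was present in part. USH1C (chromosome 11, 17493895 to 17544416, minus strand), the harmonin scaffold, was at 52.3, 64.7 and 60.3 CPM in sgCtrl and 84.7, 82.7 and 71.1 CPM in sgITPR3. The third sgITPR3 library came closest to the sgCtrl range without entering it. USH1C rose 1.35-fold, from 59.1 ± 6.26 to 79.5 ± 7.36 CPM, a log2 fold change of 0.43 with an SE of 0.0902 (edgeR adjusted p = 0.00337). With ALB as a covariate it was 0.30 and the call ended (edgeR adjusted p = 0.0785). The ratio of USH1C to PLS1 counts was 2.01, 2.6 and 1.91 in sgCtrl and 3.47, 2.97 and 2.95 in sgITPR3, a log2 difference of 0.54 without overlap (exact permutation test, p = 0.1; 0.133 adjusted over 4 ratios).

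The partners that harmonin holds at the tip were at or near 0. MYO7B (chromosome 2, 127535802 to 127637729) had 0, 3 and 0 counts in sgCtrl and 0, 0 and 1 in sgITPR3. CDHR2 (chromosome 5, 176542511 to 176595974) had 1, 1 and 0 counts against 0, 1 and 0. CDHR5 (chromosome 11, 616565 to 626078) had 0 counts in 5 libraries and 4 counts in sgITPR3 replicate 2. A library with 0 counts allows up to 3 counts, which is 0.121 to 0.161 CPM, by counting error alone, and no fold is given for these 3 genes. So in both groups the harmonin transcript was above 50 CPM in every library while those of the cadherins it anchors had at most 4 counts in any library. ANKS4B, encoding the third part of the tip scaffold, had 0, 7 and 1 counts in sgCtrl and 0, 9 and 1 in sgITPR3, also under the filter.

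Start regions of members at very different levels are shown because their CpG content differed along with the levels. RefSeq windows (GRCh38.p14) were found for 6 of the 10 genes, and the 250 bases before the start site are printed for 4 of them with each CpG in capitals: EZR (chr6:158818236-158818485, minus strand) and USH1C (chr11:17544417-17544666, minus strand), both well expressed, and MYO1A (chr12:57051199-57051448, minus strand) and CDHR2 (chr5:176542261-176542510, plus strand), both under the filter.
EZR: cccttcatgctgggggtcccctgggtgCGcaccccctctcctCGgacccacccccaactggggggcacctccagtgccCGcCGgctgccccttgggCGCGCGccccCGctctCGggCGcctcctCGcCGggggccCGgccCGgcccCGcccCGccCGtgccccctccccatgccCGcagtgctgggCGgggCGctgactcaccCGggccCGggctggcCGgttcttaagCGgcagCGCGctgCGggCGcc
USH1C: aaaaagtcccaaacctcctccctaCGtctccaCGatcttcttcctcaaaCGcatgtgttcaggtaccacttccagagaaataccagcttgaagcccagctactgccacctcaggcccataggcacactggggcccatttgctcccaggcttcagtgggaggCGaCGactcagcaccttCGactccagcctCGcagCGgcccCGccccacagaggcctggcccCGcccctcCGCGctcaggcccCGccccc
MYO1A: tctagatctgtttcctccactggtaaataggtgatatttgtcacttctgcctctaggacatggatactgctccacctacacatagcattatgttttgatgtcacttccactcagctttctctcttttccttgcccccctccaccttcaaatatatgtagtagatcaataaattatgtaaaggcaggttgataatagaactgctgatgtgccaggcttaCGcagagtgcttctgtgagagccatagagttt
CDHR2: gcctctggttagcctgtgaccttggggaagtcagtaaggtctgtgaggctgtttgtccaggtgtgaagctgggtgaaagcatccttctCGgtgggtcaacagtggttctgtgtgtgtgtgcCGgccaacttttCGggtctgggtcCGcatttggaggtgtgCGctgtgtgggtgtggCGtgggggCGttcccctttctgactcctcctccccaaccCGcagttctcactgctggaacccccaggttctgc

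These windows hold 28 CpGs for EZR, 13 for USH1C, 8 for CDHR2 and 1 for MYO1A, and the remaining pair hold 15 for PLS1 and 5 for MYO7B. The median over 27305 such windows was 11. So the 3 members above the filter had 13 to 28 and the 3 below it 1 to 8, a description of 6 genes with no test. Letters bound by gut regulators were searched on both strands. CAAAGTCCA (HNF4) was in 0 of the 6 and in 0.293% of all windows, its core CAAAGT, which CAAAGTCCA contains, in MYO7B and in 10.4% of all windows, GTTAAT (HNF1) in 0 of the 6 and 6.22% of all, and TTTAT (CDX) in MYO1A and MYO7B and in 33.7% of all. A match is a description of letters and no match speaks of these 250 bases only.

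The order of levels among the members changed through VIL1. In sgCtrl it ran EZR, USH1C, PLS1, ESPN, EPS8, VIL1 and MYO1A, from 324 to 0.173 CPM, with no overlap between neighbours. In sgITPR3 it ran EZR, USH1C, VIL1, PLS1, EPS8, ESPN and MYO1A, from 228 to 0.422 CPM, again with no overlap between neighbours. VIL1 thus went from rank 6 to rank 3, and EPS8 lay below ESPN in sgCtrl and above it in sgITPR3. These orders of genes were not tested. EZR made up 73.1% of the summed level of the 10 genes in sgCtrl and 55.6% in sgITPR3, and VIL1 0.717% and 8.97%. Without EZR the sum was 119 ± 9.997 CPM in sgCtrl and 182 ± 9.54 CPM in sgITPR3 (SD, n = 3 each), of which VIL1, chosen for its rise, supplied 3.18 and 36.7 CPM.

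VIL1 shares its 3' end with another gene, which matters for tags taken there. The last 3045 bases of VIL1 overlap USP37, a ubiquitin protease gene on the opposite strand, between 218450251 and 218453295. The shorter of the annotated VIL1 transcripts ends at 218449524, before the overlap, and the longer runs through it. The sources used here do not say whether the counting used strand, so reads of both genes in the overlap cannot be told apart. USP37 was at 57.7 ± 0.978 CPM in sgCtrl and 60.1 ± 0.124 CPM in sgITPR3 and did not pass (log2 fold change 0.059, edgeR adjusted p = 0.567). Of the other genes nearest to VIL1, SLC11A1, CTDSP1, CNOT9 and PLCD4 had log2 fold changes of 0.15, 0.17, -0.17 and 1.16 and did not pass (edgeR adjusted p = 0.723, 0.1, 0.0835 and 0.179), and CATIP was under the filter.

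Within 500 kb of VIL1, 20 of 24 other protein-coding genes could be tested, with a median log2 fold change of 0.090. Of these, 4 rose and 1 fell, against 11.6% and 11.9% of all genes tested. They are named after their values were seen: ARPC2, an actin nucleation subunit gene (0.20, edgeR adjusted p = 0.0436), TMBIM1 (0.32, adjusted p = 0.0149), CYP27A1 (0.40, adjusted p = 0.0198) and WNT6 (0.48, adjusted p = 0.00329), against CXCR1 (-1.47, adjusted p = 2.55e-05). The calls of ARPC2, TMBIM1 and CYP27A1 each ended without sgCtrl replicate 1 and without sgITPR3 replicate 2, among other fits (edgeR adjusted p = 0.0574 to 0.145). Of 15 annotated genes that overlap any member, 11 had under 10 counts in all, and of the 3 that could be tested none passed (USP37, TNFRSF25 beside ESPN and GPRIN1 beside CDHR2; edgeR adjusted p = 0.567, 0.381 and 0.368).

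**Figure D3:**
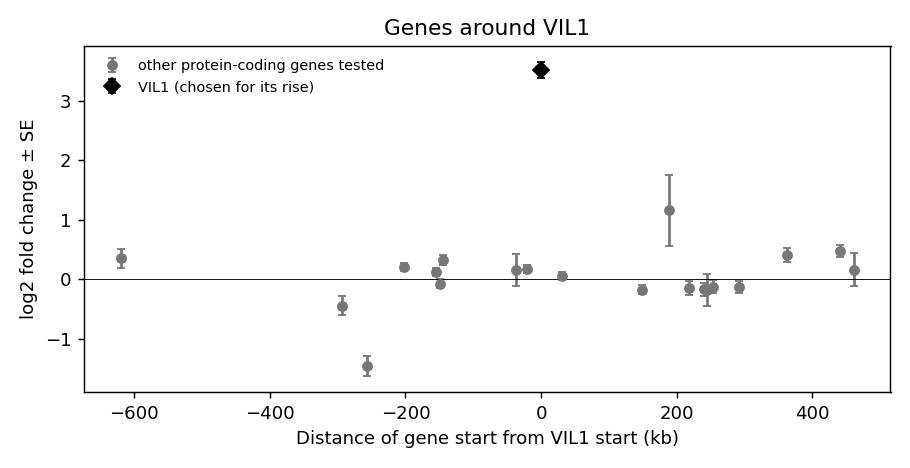
Log2 fold change (± SE) of the 20 tested protein-coding genes whose span reaches within 500 kb of VIL1, against the distance of their start from that of VIL1, with VIL1 as a diamond. The other genes lie between -1.47 and 1.16, and VIL1, chosen for its rise, is at 3.52.

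Genes whose levels followed those of VIL1 most closely were of several kinds. Over the 6 libraries, by the root mean square difference of centred log2 CPM, the nearest of 15803 genes were SBSPON (0.134), SCG3 (0.180), PCLO (0.208), MYO3B (0.221) and BMAL2-AS1 (0.239). SCG3 encodes a secretory granule protein, PCLO a presynaptic scaffold and MYO3B an actin-based motor of the class that carries cargo along filament bundles. SBSPON rested on 6 to 12 counts per sgCtrl library. CLRN3, a microvillus partner gene, followed at rank 6 (0.246). Of the members, EPS8 ranked 778 and USH1C 2163 by this measure. The 6 points fall into the groups that chose VIL1, and VIL1 was chosen for that difference, so the ranks are a description.

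Liver RNA varied between the libraries and moved in part with the groups. ALB, the albumin transcript of hepatocytes, was at 33.8, 169.7 and 21.6 CPM in sgCtrl and 231.6, 152.6 and 111.5 CPM in sgITPR3, so sgCtrl replicate 2 lay within the sgITPR3 range. The 20 hepatocyte markers, of which 1 was at 0 throughout, summed to 79.8 to 361 CPM in sgCtrl and 222 to 404 CPM in sgITPR3. Of 12 that could be tested, 2 passed as higher and 1, SERPINA1, as lower, against 11.6% and 11.9% of all genes tested. The median log2 fold change of the 12 was 1.07, against 0.00086 over all genes tested, but they did not all move together. SERPINA1 was at 45.3, 45.8 and 38.9 CPM in sgCtrl and 16.4, 12.4 and 12.9 CPM in sgITPR3 (log2 fold change -1.64, edgeR adjusted p = 1.51e-07). Its level in sgCtrl replicate 2 was 109% of the mean of the other sgCtrl libraries, where that of ALB was 613%. In sgCtrl replicate 2, VIL1 was at 4.13 CPM, against 36.0 CPM in sgITPR3 replicate 3, where ALB was lower. The same pair of libraries had 12.4 and 21.5 CPM of EPS8, 64.7 and 71.1 CPM of USH1C, and 295 and 251 CPM of EZR. With the log2 level of ALB added to the fit, EPS8 stayed higher (0.83, edgeR adjusted p = 6.23e-04) and EZR lower (-0.37 on the log2 scale, edgeR adjusted p = 0.00814), while the call of USH1C ended as given above. In bulk RNA, fewer cells of a type and less RNA per cell cannot be told apart.

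**Figure D4:**
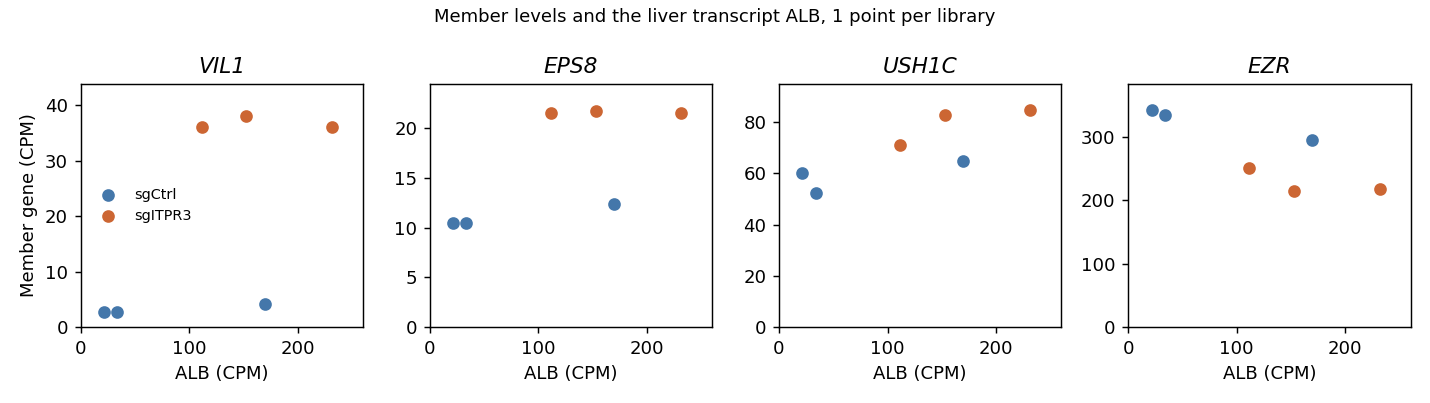
Levels of VIL1, EPS8, USH1C and EZR against ALB, all in CPM, 1 point per library. The sgCtrl library with 169.7 CPM of ALB is, for each gene, the sgCtrl library nearest to the sgITPR3 libraries, and lies outside their range. Its levels are 152% (VIL1), 119% (EPS8), 115% (USH1C) and 87.2% (EZR) of the mean of the other sgCtrl libraries.

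Some markers of enteroendocrine cells, hormone-secreting cells of gut epithelium, were also higher in sgITPR3. Of 14 such markers 8 could be tested, 6 of them with at least 10 counts in each sgCtrl library. Of those 6, CHGA, CHGB, SCG3, PCSK1 and SYP rose and RAB3B fell, from 43.2 to 13.3 CPM as group means. Over all genes tested, 11.6% rose and 11.9% fell. SCG2 had 2, 7 and 1 counts in sgCtrl, passed the filter through sgITPR3 alone and is given without a test. SYT13 did not pass. The 14 markers summed to 65.9 to 77.6 CPM in sgCtrl and 178 to 214 CPM in sgITPR3. INSM1 and TAC1 were at 0 in every library, and GCG, PYY and NEUROD1 had at most 1 count in any. Summed markers of red cells were 0.587 to 1.34 and 4.84 to 6.39 CPM, those of neutrophils 20.2 to 26.8 and 11.9 to 15.8 CPM, and those of stellate cells and fibroblasts 7.26 to 7.42 and 9.28 to 11.6 CPM. Macrophage and endothelial markers summed to at most 2.63 and 1.77 CPM in any library. The part of any of these in the member results was not tested.

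Genes that work beside the members in microvilli moved in both directions. Of 24 listed partners 19 could be tested, and 4 rose, 7 fell and 8 did not pass (median log2 fold change -0.19). The shares over all genes tested were 11.6% higher and 11.9% lower. CLRN3, encoding a four-span membrane protein of the clarin family, rose 8.61-fold from 1.49 ± 0.260 to 12.9 ± 0.668 CPM, a log2 fold change of 3.11 with an SE of 0.173 (edgeR adjusted p = 2.18e-08). CLIC5, encoding a protein that joins ezrin at the membrane, rose from 17.6 ± 3.42 to 28.5 ± 2.15 CPM (a log2 difference of 0.69, edgeR adjusted p = 0.00109). MISP, encoding an actin-bundling protein that gathers at microvillus rootlets, rose from 4.94 ± 0.845 to 9.51 ± 0.610 CPM (a log2 difference of 0.95, edgeR adjusted p = 6.22e-04), and BAIAP2, whose product bends membranes, from 16.3 ± 0.528 to 24.0 ± 1.65 CPM (a log2 difference of 0.56, edgeR adjusted p = 8.39e-04). These 4 calls held in each of the 13 other settings. Those that fell were MSN, COBL, TWF2, PODXL, MYO5B, RAB11A and STXBP2, with log2 fold changes from -0.26 to -0.69 (named after their values were seen). Without sgCtrl replicate 1, sgITPR3 replicate 1 or sgITPR3 replicate 2, 4, 3 and 3 partners fell, and with ALB as a covariate 0.

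Among relatives of the members by gene family, 20 of 27 could be tested, and 4 rose, 5 fell and 11 did not pass (median log2 fold change 0.022). Of all genes tested, 11.6% rose and 11.9% fell. EPS8L3, a relative of EPS8, rose from 16.1 ± 0.757 to 35.6 ± 5.18 CPM, a log2 fold change of 1.15 with an SE of 0.111 (edgeR adjusted p = 4.44e-06). MYO3B rose from 2.27 ± 0.519 to 20.1 ± 1.98 CPM (a log2 difference of 3.14, edgeR adjusted p = 1.35e-08), and MYO1D, a relative of MYO1A present at far higher levels, from 120 ± 9.05 to 159 ± 6.54 CPM (a log2 difference of 0.40, edgeR adjusted p = 0.00109). The villin-like gene VILL also rose from a low level of 1.15 CPM (a log2 difference of 1.20, edgeR adjusted p = 0.0288), but this call ended once ALB was a covariate (0.58, adjusted p = 0.349) and in 5 of the 6 fits that left out 1 library, all but the one without sgCtrl replicate 2 (edgeR adjusted p = 0.061 to 0.0988). FSCN1, encoding the bundler fascin of filopodia, fell from 235 ± 15.1 to 121 ± 29.2 CPM, a log2 fold change of -0.96 with an SE of 0.124 (edgeR adjusted p = 6.54e-05). PLS3, the plastin of many non-gut cells, fell with a log2 fold change of -0.40 (edgeR adjusted p = 0.00746), as did GSN, CAPG and CDH23. With ALB as a covariate, or without sgITPR3 replicate 2, the 5 falls became 3. The fall of GSN ended in both and without sgCtrl replicates 2 and 3 and sgITPR3 replicates 1 and 3, that of PLS3 with ALB (edgeR adjusted p = 0.0552), and that of CDH23 without sgITPR3 replicate 2 (edgeR adjusted p = 0.0697).

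**Figure D5:**
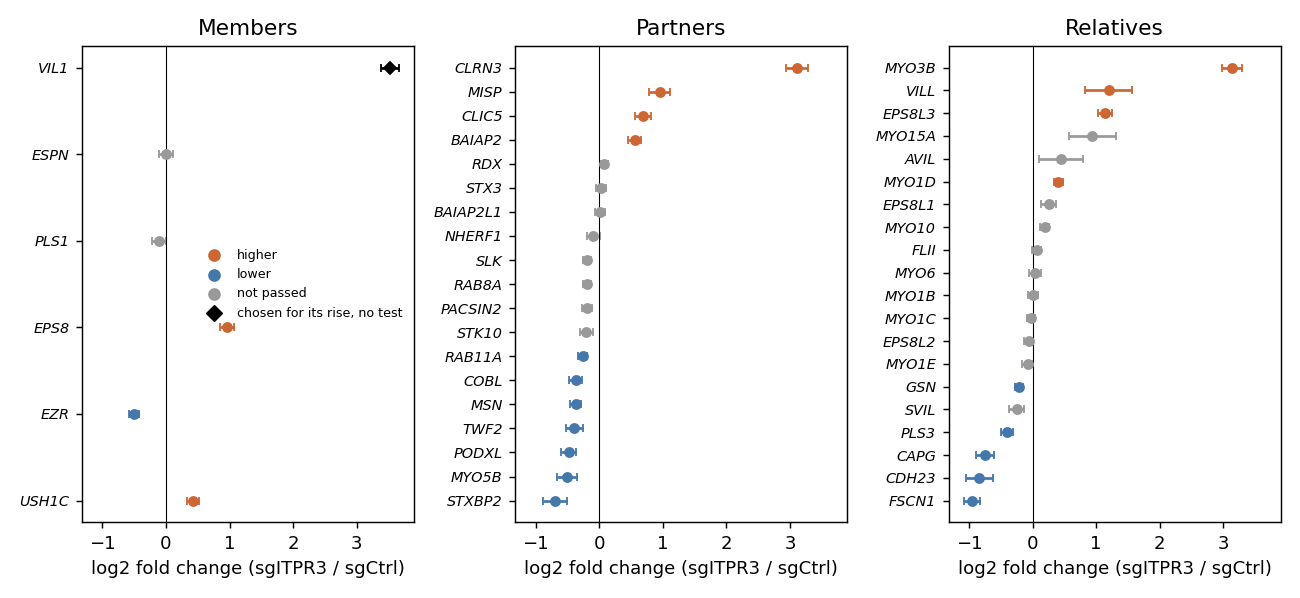
Log2 fold change of sgITPR3 over sgCtrl (± SE) for the tested members (left), the microvillus partners (middle) and the family relatives (right); orange passed as higher, blue as lower and grey did not pass. VIL1, the diamond, is at 3.52, and only CLRN3 (3.11) and MYO3B (3.14) of the genes shown come near it.

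Products of mature enterocytes were mostly not detected. Of 35 listed genes of the absorptive surface, 8 could be tested and 27 were under the filter, of which 10 had no count in any library, among them SI and SLC9A3. FABP1, the fatty acid carrier of gut and liver, was at 0.914, 3.08 and 0.267 CPM in sgCtrl and 13.6, 8.94 and 6.24 CPM in sgITPR3. Its log2 fold change was 2.73, with 1.61 when ALB was a covariate and 4.02 without sgCtrl replicate 2. With 17, 62 and 5 counts in sgCtrl it passed the filter only with the sgITPR3 libraries, where it is high. It is therefore given without a test. CEACAM1 rose with a log2 fold change of 0.46 (edgeR adjusted p = 0.0328), but its groups overlapped and the call ended in 4 of the 6 fits that left out 1 library (edgeR adjusted p = 0.0971 to 0.144) and with ALB as a covariate (0.586). ALPI, the intestinal alkaline phosphatase, and SLC9A2 did not pass (log2 fold changes 0.64 and -0.46, edgeR adjusted p = 0.16 and 0.0778). Of the 8, 2 counted as higher, FABP1 and CEACAM1, and 0 as lower, where 11.6% of all genes tested rose and 11.9% fell. As FABP1 passed the filter through sgITPR3, this count cannot be read against those shares. The count of rises, in which FABP1 is included, was 1 without sgCtrl replicate 1 or 3 or without sgITPR3 replicate 1 or 2. It was 5 without sgCtrl replicate 2, the library with the most ALB in its group.

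Of 20 regulators of gut epithelium, 13 could be tested, and 7 rose, 2 fell and 4 did not pass, where 11.6% of all genes tested rose and 11.9% fell. HNF4A, a nuclear receptor that acts in gut and liver epithelium, rose from 4.31 ± 0.405 to 12.8 ± 0.400 CPM (a log2 difference of 1.57, edgeR adjusted p = 1.63e-06), EHF from 15.6 ± 2.01 to 45.5 ± 6.55 CPM (log2 fold change 1.55), GATA6 from 2.30 ± 0.687 to 8.15 ± 1.56 CPM (log2 fold change 1.83) and KLF5 from 69.2 ± 0.755 to 91.7 ± 5.35 CPM (log2 fold change 0.41). PDX1 and ELF3 fell (log2 fold changes -0.73 and -0.36, edgeR adjusted p = 0.0171 and 0.0177). The fall of PDX1 did not pass in 3 of the 6 fits that left out 1 library, namely sgCtrl replicate 1 and sgITPR3 replicates 1 and 3 (edgeR adjusted p = 0.0584 to 0.0661), and that of ELF3 in 2, namely sgCtrl replicate 3 and sgITPR3 replicate 2 (0.0634 and 0.0986) and once ALB was a covariate (-0.31, adjusted p = 0.152). Without sgCtrl replicate 2, 4 regulators fell.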

How the data were processed

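RNA was sequenced from 3 sgCtrl and 3 sgITPR3 libraries, made per the labels' protocols from polyadenylated RNA with a Lexogen 3' kit. The values used are raw gene counts deposited by the authors. STAR 2.6.0a, featureCounts 1.6.3, DESeq2 and GRCh38 are named in the submitters' processing notes. The annotation release, the strand setting and how mouse reads were treated are not stated there. Positions came from GENCODE 29, start regions from RefSeq.

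Genes were kept by filterByExpr (minimum count 10), leaving 15804 that hold at least 99.8% of each library. The quasi-likelihood test of edgeR 4.0.16 (R 4.3.3, TMM scaling, no covariate) compared the groups with Benjamini-Hochberg adjustment over all genes tested. SE is the log2 fold change over the square root of F. The procedure was tested on simulated data. Libraries of a group differed by more than sampling noise (chi-square over its degrees of freedom 5.51 to 10.6).

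Members and lists were chosen with earlier results of these data known. Genes named were the members, ITPR3, ALB, the 4 smallest p and up to 2 opposite calls per related list, the 3 protein-coding genes on each side of VIL1, genes overlapping a member and the 5 nearest to VIL1; others were named for function or after their values were seen. The fit was repeated with ALB as a covariate, with a replicate block, with each library left out, with RLE scaling, unfiltered, with genes at 1 CPM in 3 libraries, and with DESeq2 1.42.0 and limma-voom (limma 3.58.1).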

Additional observations from a re-analysis of the deposited data

How the results depend on the processing

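EPS8, EZR and VIL1 kept their direction, and EPS8 and EZR their calls, in 13 alternative settings each, as did USH1C in 12 of 13. With ALB as a covariate 1 member counted as higher (EPS8), and the counts over all genes went from 1835 higher and 1882 lower to 1000 and 982. That fit also gave 0 lower microvillus partners, 3 lower relatives, 1 higher enterocyte gene and 1 lower regulator, with PLS1 at a log2 fold change of 0.037 and SLC11A1 at -0.19. Leaving out 1 library gave 1141 to 2105 genes higher and 1192 to 2097 lower, the fewest without sgITPR3 replicate 2. It gave 3 to 8 lower partners, 3 to 5 lower relatives, 1 to 5 higher and 0 to 1 lower enterocyte genes, and 1 to 4 lower regulators. Each of these counts of higher enterocyte genes includes FABP1, which is given without a test. The log2 fold change of PLS1 ran from -0.18 to 0.00012 (the latter without sgCtrl replicate 3), that of SLC11A1 from -0.12 (without sgCtrl replicate 1) to 0.45, and that of ESPN from -0.077 to 0.11, with 0.11, 0.020 and 0.0045 without sgCtrl replicate 2 and sgITPR3 replicates 2 and 3. ESPN was also at 0.0047 with the 1 CPM filter. Without a low-count filter 4 enterocyte genes were higher. Those added were near 0 in sgCtrl: ANPEP, with 0, 0 and 0 counts against 7, 10 and 2 in sgITPR3, and SLC26A3, with 0, 2 and 0 against 0, 0 and 23. The cause of these shifts was not tested. Replicate numbers did not pair the libraries (same-numbered deviations correlated at -0.050, 0.013 and 0.098); with the replicate block 1896 genes were higher and 1981 lower, 1 enterocyte gene was lower and ESPN was at 0.00076. Depth limits MYO1A, MYO7B, CDHR2 and CDHR5, which had 39 counts or fewer over all 6 libraries.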

Other observations

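Several genes that build the stereocilia of inner ear hair cells, which are made of bundled actin like microvilli, were examined after the values of MYO3B and CLRN3 were seen, so the list is a description. Of 28 such genes outside the brush border members, 13 had at least 10 counts in each sgCtrl library and could be tested. Of these 13, 3 were called higher, 2 lower and 8 not, where 11.6% of all genes tested were higher and 11.9% lower. The 3 include MYO3B and CLRN3, whose values prompted the list, so the count of rises cannot be read against that share. Those higher were MYO3B and CLRN3, given above, and CIB2, encoding a calcium-binding partner of the hair cell channel, from 2.25 ± 0.203 to 3.71 ± 0.307 CPM (a log2 difference of 0.73, edgeR adjusted p = 0.0248), a call that ended once ALB was a covariate (adjusted p = 0.154) and in 3 of the 6 fits without 1 library, those without sgCtrl replicate 3 and sgITPR3 replicates 1 and 2 (0.0726 to 0.0917). Those lower were CDH23, encoding a tip link cadherin, from 4.31 ± 0.145 to 2.42 ± 0.454 CPM (a log2 difference of -0.84, edgeR adjusted p = 0.0117), and TRIOBP, encoding a bundler of rootlets, from 139 ± 5.82 to 112 ± 0.700 CPM (a log2 difference of -0.32, edgeR adjusted p = 0.00281). XIRP2, encoding an actin-binding protein, had 6, 5 and 1 counts in sgCtrl and 40, 40 and 36 in sgITPR3, and is given without a test because it passed the low-count filter through the sgITPR3 libraries alone. The other tip link cadherin, PCDH15, had no count in any library.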
